A study of Mus musculus with 14 samples.

Results

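The collagens, elastic fibre proteins and matrix proteoglycans described here are 76 probe sets of 52 genes, out of 12422 probe sets and 8251 gene symbols on the array. A probe set was a member when its single gene symbol in the platform annotation began with Col and a digit, with Fbln, Mfap or Lox, or was Eln, Fbn1, Fbn2, Fn1, Sparc, Dcn, Lum, Bgn, Fmod, Vcan, Tnc, Postn, Ogn, Mgp or Inmt. No probe set carried the symbol Fbn1, and 18 of the genes had more than 1 probe set. The rule used names only and no measured value, but it was chosen with earlier results of these data known. One member, Inmt, codes for indolethylamine N-methyltransferase, a cytosolic enzyme and no matrix protein, and is described apart from the rest.

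RNA of 14 samples was hybridised to Affymetrix Murine Genome U74v2 arrays, 1 each, to set lung tumors driven by c-Myc against normal lung. The 4 control samples were lungs of non-transgenic mice. Tumors were taken from hemizygous SPC/c-Myc transgenic animals, in which the surfactant protein C promoter drives c-Myc in respiratory epithelium. They were 3 pools of small tumors of about 1 mm (3 to 4 tumors per pool), 4 middle-sized tumors of about 4 to 5 mm and 3 large tumors of 10 mm or more. All mice were of the CD2F1-(DBA/2xBalb/C) background and 9 to 13 months old, and each sample came from its own animal according to the methods. Control samples were whole lung and tumor samples were dissected tumor, so the transgene, tumor growth and the difference between whole lung and dissected tissue cannot be told apart in any comparison with control. The 3 sizes share the same 4 control lungs.

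Fibrillar collagens form the cables that give lung its tensile strength, and elastic fibres, made of an elastin core on a scaffold of microfibrils, let it recoil after each breath. Collagen IV networks underlie epithelium and endothelium as basement membrane. Small leucine-rich proteoglycans sit on collagen fibrils and set their diameter and spacing, lysyl oxidases cross-link collagen and elastin, and matricellular proteins such as periostin and SPARC tie matrix to cells. Most of this matrix is made by fibroblasts, smooth muscle and mesothelium, and the collagens of basement membranes are also made by endothelium and epithelium.

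The deposited value is the MAS 5 signal, a linear intensity that the authors scaled to a target of 250 on each array, so samples are compared by their share of the measured transcripts. Signals under 70, below which the methods take a gene as not expressed, were set to 70 before log2, and a probe set was tested when it reached 70 on at least 3 arrays. Of the members, 56 probe sets of 41 genes were tested, in a limma model of 4 groups over all 8127 probe sets that passed, and calls were made at adjusted p under 0.05, by Benjamini-Hochberg over all 8127. A probe set under 70 throughout a group has no spread there after this step, its fold is a lower bound, and its standard error leaves out that group's spread. On the array of middle tumor 3, 25.2% of all values stood at 0 or just above and were taken as missing, 15 of them members' values (9 among the tested), so those probe sets have 3 middle-sized tumors and 9 tumors. The other 13 arrays had 6796 to 7575 probe sets at 70 or above. Myc itself, the transgene product, had signals of at most 35.6 in control lung and 325 to 2165 in the tumors (limma log2 fold change 4.04, adjusted p = 4.8e-08). Signals of different probe sets were not set against each other, because each has its own probes. Identifiers with a letter before the ending (_f_at, _g_at, _i_at, _r_at, _s_at) mark probe sets designed with relaxed rules, which can bind related transcripts, so values of those are uncertain to that extent.

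The matrix genes that were called in the tumors moved mostly one way. Of the 56 tested members, 24 probe sets of 20 genes were lower in all tumors than in control lung, 2 were higher and 30 were not called. Over all tested probe sets, 20.8% were called lower and 22.7% higher in that comparison, while 42.9% of the members were called lower and 3.57% higher. The median log2 fold change was -0.44 over the members and 0.03 over all probe sets. Every tumor lay below every control lung for 16 members, against 12.6% of all tested probe sets, and every tumor lay above every control lung for 1 member, against 10.4%. These are counts of probe sets chosen by name and no test of the list. In bulk tissue, fewer cells of a type and less RNA per cell cannot be told apart.

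**Figure D1:**
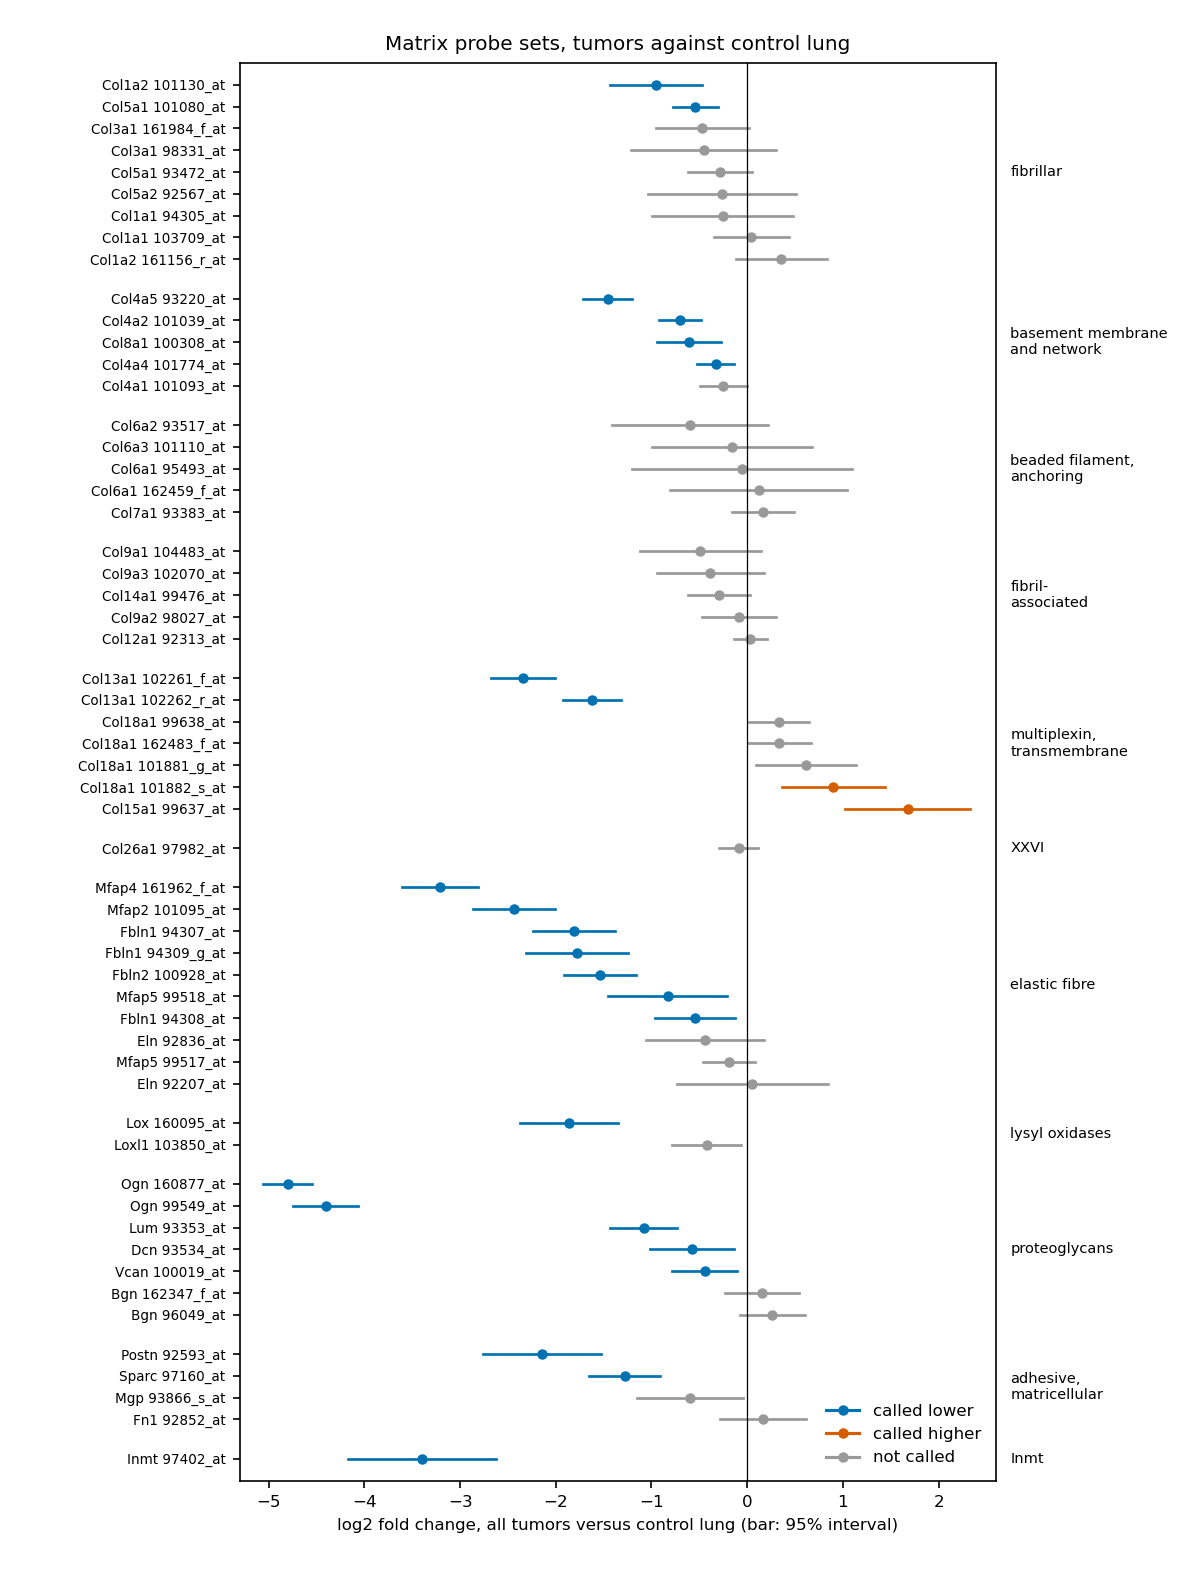
Log2 fold change of all tumors against control lung for the 56 tested member probe sets, 1 row each, grouped by role; points are limma estimates and bars their 95% intervals, blue for called lower, orange for called higher and grey for not called. The lowest values are those of Ogn (-4.80 and -4.40) and Inmt (-3.40), the highest is that of Col15a1 (1.68), and no collagen VI or fibril-associated collagen is called.

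The leucine-rich proteoglycans held the largest fall and also a member that was not called. Of 7 tested probe sets of 5 genes in this group, which includes versican, 5 were lower and 2 were not called. Ogn codes for osteoglycin (mimecan), a keratan sulfate proteoglycan of the connective tissue of vessels and other organs. Its probe set 160877_at read 1894, 1821, 2101 and 2088 in the 4 control lungs, 70.8, 76.1 and 52.5 in the small pools, 19.6, 41 and 4.2 in 3 middle-sized tumors (the value of middle tumor 3 is missing) and 31.1, 6.07 and 4.76 in the large tumors. No tumor came near any control lung, and 7 of the 9 tumors were under the limit of 70. The fall (log2 fold change -4.80, standard error 0.12, adjusted p = 1.1e-11) was the lowest log2 fold change of all 8127 probe sets tested, and Ogn was at least 28.2-fold lower in middle-sized and in large tumors. The second Ogn probe set, 99549_at, read 1612 to 1711 in control lung and 8.45 to 122 over the 10 tumors (log2 fold change -4.40, standard error 0.16, adjusted p = 9.9e-11), at least 23.9-fold lower in large tumors.

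Lum, the fibril-spacing proteoglycan lumican, and Dcn, decorin, which binds collagen I fibrils and growth factors, are neighbours on chromosome 10. Lum read 187, 119.7, 172 and 202 in control lung, 69, 55.9 and 53.1 in small pools, 78.7, 49, 127 and 83.3 in middle-sized tumors and 89.6, 82.6 and 51.5 in large ones. A single tumor, middle tumor 3, lay above the lowest control lung, and Lum fell (log2 fold change -1.08, standard error 0.16, adjusted p = 0.0001), at least 2.43-fold in small tumors. Dcn read 2108, 1912, 1612 and 2036 in control lung, 1431, 1041 and 985 in small pools, 1197, 994, 1913 and 944 in middle-sized tumors and 1849, 1912 and 999 in large ones. Middle tumor 3 and large tumors 1 and 2 read as high as control lung, and the other 7 tumors lay below every control lung. Dcn was called lower (log2 fold change -0.58, standard error 0.20, adjusted p = 0.033), but the call was lost with every array scaled to 1 median (adjusted p = 0.096), and without control lung 1 (adjusted p = 0.097), 2 (0.074) or 4 (0.083) or small pool 2 (0.056) or 3 (0.059). It was lost too with no filter on low signals (0.082) and by the methods' unpaired test after adjustment (0.057).

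Vcan, the large chondroitin sulfate proteoglycan versican, had signals near the limit: 141, 123, 68.4 and 23.9 in control lung, and a single tumor, large tumor 3, above 70 at 76.0. It was called lower (log2 fold change -0.44, standard error 0.16, adjusted p = 0.036), and the call rested on control lungs 1 and 2, with a log2 fold change of -0.26 (adjusted p = 0.17) without the first of them and -0.32 (adjusted p = 0.15) without the second. It was lost as well, at adjusted p between 0.052 and 0.053, without any 1 of the small pools or without large tumor 1 or 2, and with no filter on low signals (adjusted p = 0.080). Bgn, biglycan, the close relative of decorin, was not called. Its probe set 96049_at read 3876, 4783, 3583 and 5105 in control lung, 5293, 4933 and 5373 in small pools, 3411, 4967, 5288 and 4510.1 in middle-sized tumors and 6784, 6959.6 and 4289 in large ones, and the groups overlapped throughout (log2 fold change 0.26, adjusted p = 0.2, 95% interval -0.08 to 0.61), although with array weights, by which arrays that vary more count less, it was called higher (log2 fold change 0.34, adjusted p = 0.032). The second Bgn probe set, 162347_f_at, was not called either (log2 fold change 0.16, adjusted p = 0.52), although it was called higher without control lung 4, which read 1136 against 459 to 670.0 in the others (log2 fold change 0.40, adjusted p = 0.026). Fmod, fibromodulin, was not tested, with signals of 17.1 to 23.8 in control lung and 17.2 to 114 in tumors, above 70 in large tumors 1 and 2 alone.

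The promoters of 3 members are printed. They show the sequence upstream of the largest fall (Ogn) and of a proteoglycan that was not called (Bgn). The third is that of Fbln1, the single member with an exact CACGTG E-box in the windows searched. E-box-like variants, which the paper describes as tolerated, were not searched. Each line is the 250 bases before the outermost annotated start of transcription, 5′ to 3′ on the gene's strand, from RefSeq (GRCm38.p6). Capitals mark matches, on either strand, to CACGTG for the E-box bound by Myc and Max, GGGCGG for the GC box, the CCAAT box, or TATAAA for the TATA box. Overlapping matches run together. Ogn lies at chr13:49607765-49608014, plus strand, Bgn at chrX:73483351-73483600, plus strand and Fbln1 at chr15:85205699-85205948, plus strand.
Ogn: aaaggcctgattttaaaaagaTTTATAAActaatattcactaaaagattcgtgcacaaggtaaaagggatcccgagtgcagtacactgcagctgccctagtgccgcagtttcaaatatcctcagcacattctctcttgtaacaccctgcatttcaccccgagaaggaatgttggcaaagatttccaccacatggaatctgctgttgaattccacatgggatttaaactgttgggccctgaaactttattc
Bgn: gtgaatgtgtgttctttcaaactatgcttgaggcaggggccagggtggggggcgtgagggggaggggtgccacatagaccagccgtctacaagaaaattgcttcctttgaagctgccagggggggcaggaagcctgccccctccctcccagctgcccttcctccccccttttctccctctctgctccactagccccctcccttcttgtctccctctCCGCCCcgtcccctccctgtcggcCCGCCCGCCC
Fbln1: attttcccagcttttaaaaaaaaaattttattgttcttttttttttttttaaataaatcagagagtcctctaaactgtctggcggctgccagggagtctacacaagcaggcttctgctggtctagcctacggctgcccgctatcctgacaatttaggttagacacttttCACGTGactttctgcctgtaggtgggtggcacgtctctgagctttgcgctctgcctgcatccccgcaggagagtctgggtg
Ogn held 2 TATA box matches that overlap, 1 on each strand, and Bgn 3 GC box matches, while Fbln1 held 1 E-box. Windows were found for 33 of the member genes, a gene counting for a motif when any of its windows held it. The E-box stood in 1 of the 33 (3.03%, against 6.86% of all 27025 genes with a window) and the GC box in 17 (51.5%, against 35.4%). CCAAT stood in 11 (33.3%, against 37.5%) and the TATA box in 9 (27.3%, against 14.3%). Of the 15 genes with a window that were called lower, 1 held an E-box, 9 a GC box and 4 a TATA box. A match describes these letters only, and whether any factor binds there was not measured.

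Most probe sets of the elastic fibre proteins fell, and those of elastin itself were not called over all tumors. Of 10 tested probe sets of 6 genes, 7 were lower and 3 were not called. Mfap4, a microfibril-associated glycoprotein that binds elastin, read 737, 707, 1272 and 994 in control lung (probe set 161962_f_at), 135, 157 and 135 in small pools, 109.7, 107 and 12.7 in 3 middle-sized tumors and 52.8, 34.7 and 37.1 in large tumors. All tumors lay below all control lungs and the large tumors were all under 70, at least 13.3-fold below control lung (log2 fold change -3.21, standard error 0.18, adjusted p = 1.7e-08 for all tumors). A second probe set of Mfap4 did not reach 70 on any array. Mfap2, a component of fibrillin microfibrils, read 665, 673, 466 and 426 in control lung, 91.8, 112 and 121 in small pools, 113, 87.8, 142 and 64.2 in middle-sized tumors and 87.6, 116 and 84.8 in large ones. The tumors of all 3 sizes sat in the same narrow range, below every control lung (log2 fold change -2.44, standard error 0.20, adjusted p = 2.8e-07).

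Fibulins 1 and 2 are calcium-binding glycoproteins that bridge elastic fibres and basement membranes. Of Fbln1, probe set 94309_g_at read 639, 616, 704 and 872 in control lung, 201, 207 and 199 in small pools, 428, 172, 270.2 and 122 in middle-sized tumors and 199.9, 215 and 161 in large ones, every tumor below every control lung (log2 fold change -1.78, standard error 0.25, adjusted p = 5e-05). Its probe set 94307_at fell by as much (log2 fold change -1.81, adjusted p = 5.7e-06), while 94308_at fell by less (log2 fold change -0.54, adjusted p = 0.036) and its call was lost without control lung 1 (adjusted p = 0.072), 2 (0.053) or 4 (0.14), small pool 2 (0.062), middle tumor 2 (0.051) or large tumor 1 (0.052) or 3 (0.060), with every array scaled to 1 median (0.081), with no filter on low signals (0.064) and with a block for the replicate number (adjusted p = 0.060). Fbln2 read 254 to 327 in control lung and 47.2 to 174 in tumors (log2 fold change -1.54, standard error 0.18, adjusted p = 7.5e-06).

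Elastin, the core protein of the fibre, was not called over all tumors. Its probe set 92836_at read 1283, 1780.0, 1818 and 975 in control lung, 1019, 1804 and 1397 in small pools, 1602, 1105, 1846 and 862 in middle-sized tumors and 1294, 474 and 431 in large ones (log2 fold change -0.44, adjusted p = 0.24, 95% interval -1.06 to 0.18). Against control lung it was called lower in large tumors alone (log2 fold change -1.14, standard error 0.37, adjusted p = 0.027), where large tumors 2 and 3 lay below every control lung and large tumor 1 among them. Over all tumors it was called lower without large tumor 1 (log2 fold change -0.61, adjusted p = 0.045). The second probe set, 92207_at, gave no call in any size (log2 fold change 0.05 for all tumors and -0.24 for large tumors). Mfap5, a second microfibril glycoprotein, read 274, 256, 401 and 281 in control lung (99518_at), 271, 213 and 254 in small pools, 309, 223, 216 and 105 in middle-sized tumors and 187, 48.9 and 70.3 in large ones. Only the large tumors were all below control lung, and they alone were called among the sizes (log2 fold change -1.61, standard error 0.37, adjusted p = 0.0038). Over all tumors Mfap5 was called lower (log2 fold change -0.83, adjusted p = 0.032), a call lost without control lung 1 (adjusted p = 0.060), 3 (0.12) or 4 (0.059), small pool 2 (0.055) or large tumor 2 (0.056) or 3 (0.055), with every array scaled to 1 median (0.061), and with no filter on low signals (0.081) and by the methods' unpaired test. Its other probe set, 99517_at, was near the limit of 70 on most arrays and was not called (log2 fold change -0.19, adjusted p = 0.26).

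Of the lysyl oxidases, Lox read 411, 399, 391 and 186 in control lung, 101, 82.5 and 90.7 in small pools, 148, 70.4 and 127 in 3 middle-sized tumors and 86.4, 60.9 and 64.8 in large tumors, every tumor below every control lung (log2 fold change -1.86, standard error 0.24, adjusted p = 3.3e-05). Control lung 4 was far below the other control lungs, and without it the log2 fold change was -2.14 (adjusted p = 5.9e-06). A second Lox probe set, 161177_f_at, was not tested because it reached 70 on 1 array only. Loxl1, which cross-links elastin, read 74 to 141 in control lung and 50.2 to 113 in tumors and was not called (log2 fold change -0.42, adjusted p = 0.056), but it was called lower without control lung 2 (adjusted p = 0.0090), middle tumor 1 (0.020) or large tumor 2 (0.038), with array weights (0.018) and by the methods' unpaired test unadjusted.

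Among the adhesive and matricellular proteins, 2 of 4 tested genes fell. Postn, periostin, which binds collagen I and fibronectin and is made by activated fibroblasts, read 1068, 1162, 1204 and 1015 in control lung, 162, 432 and 306 in small pools, 457, 358, 209 and 237 in middle-sized tumors and 259, 102 and 256 in large ones (log2 fold change -2.15, standard error 0.29, adjusted p = 3.6e-05). Sparc (osteonectin), a collagen-binding glycoprotein that helps procollagen into fibrils, read 1514, 1901, 1522 and 1261 in control lung, 725, 827 and 569 in small pools, 521, 518, 809.7 and 629 in middle-sized tumors and 719, 417 and 693 in large ones (log2 fold change -1.28, standard error 0.17, adjusted p = 3.9e-05). For both, every tumor lay below every control lung. Mgp, matrix Gla protein, an inhibitor of calcification, read 1229.7, 1558, 1418 and 1560.2 in control lung, 958, 780.0 and 1012 in small pools, 1243, 968, 1668 and 786 in middle-sized tumors and 1704, 702 and 498 in large ones. Middle tumor 3 and large tumor 1 read above every control lung, and middle tumor 1 among them, and Mgp was not called (log2 fold change -0.59, adjusted p = 0.078), although it was called lower without middle tumor 3 (adjusted p = 0.046) or large tumor 1 (0.0040) or with array weights (0.035). Fn1, fibronectin, read 364, 458, 495 and 726 in control lung and 368 to 780.0 in tumors, with full overlap (log2 fold change 0.17, adjusted p = 0.57, 95% interval -0.28 to 0.62). Tnc, tenascin-C, reached 70 in 1 control lung and in no tumor and was not tested.

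**Figure D2:**
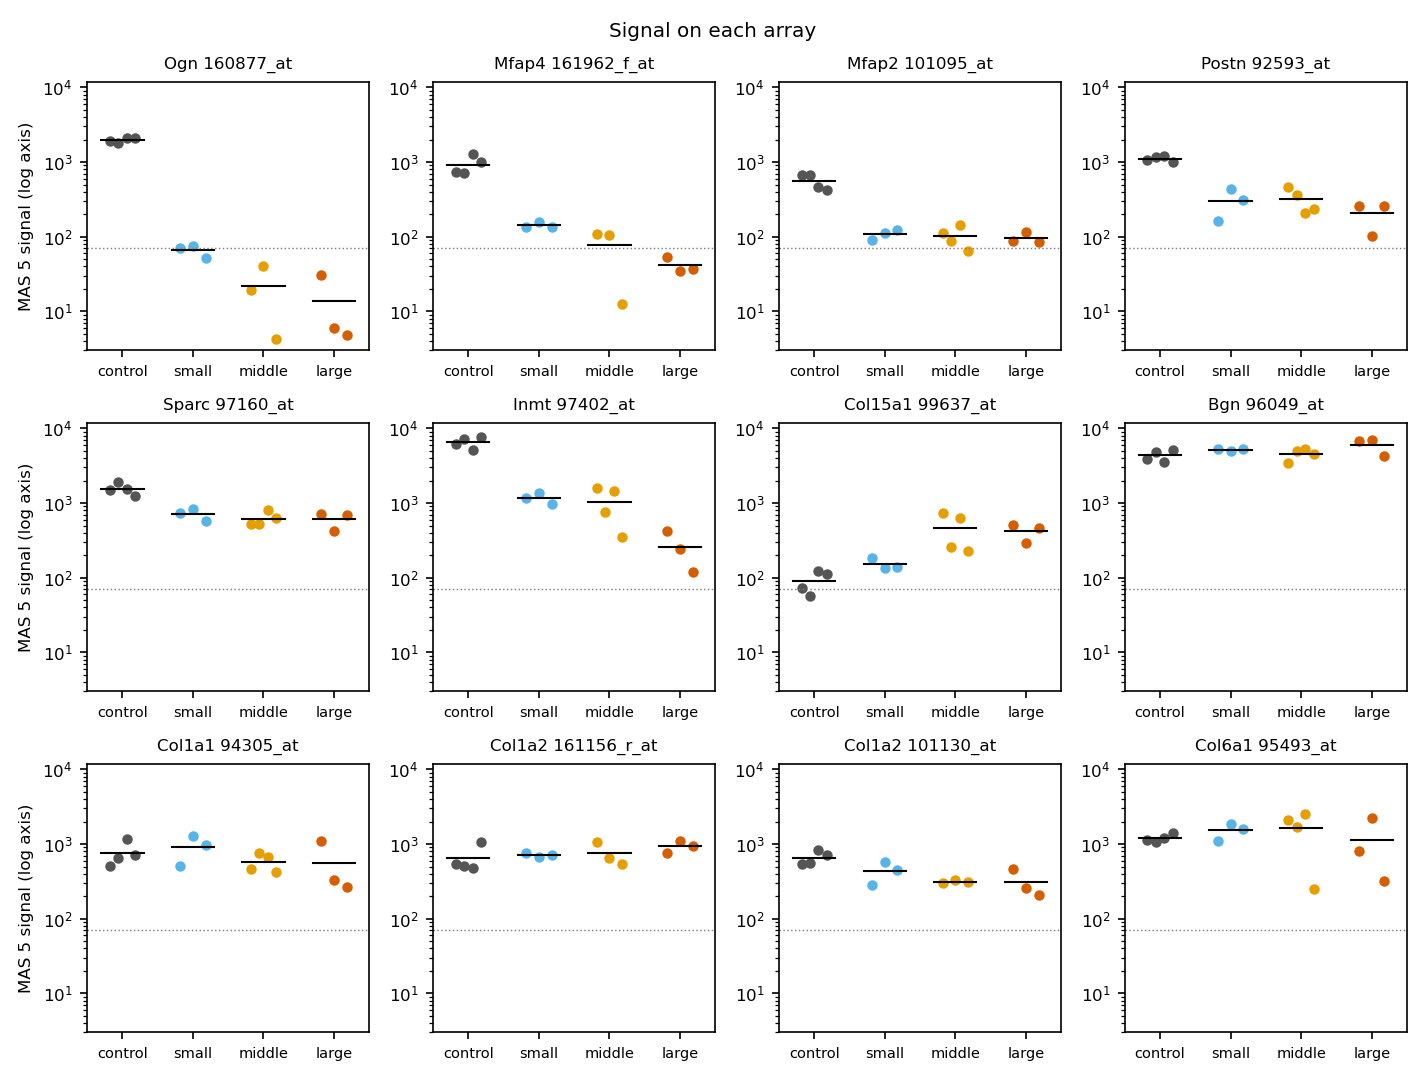
Deposited MAS 5 signal on a log axis for 12 member probe sets, 1 panel each; points are single arrays (4 control lungs, 3 small pools, 4 middle-sized tumors or 3 where 1 value is missing, and 3 large tumors), black lines are group means and the dotted line is the limit of 70. Ogn, Mfap4, Mfap2, Postn, Sparc and Inmt lie below control lung in every tumor and Col15a1 lies above it in every tumor, while Bgn, Col1a1, both Col1a2 probe sets and Col6a1 overlap with control lung.

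Most probe sets of the fibrillar collagens were not called. Of 9 tested probe sets of 5 genes, 2 were lower and 7 were not called. Over all 8127 tested probe sets, 20.8% were called lower and 4598 were not called, so the count lower is near the share over all probe sets. Col1a1, the main chain of collagen I, read 491, 486, 578 and 685 in control lung (103709_at), 481, 737 and 721 in small pools, 685, 603, 767 and 401 in middle-sized tumors and 625, 446 and 426 in large ones. The tumors spanned the control range (log2 fold change 0.04, adjusted p = 0.87, 95% interval -0.35 to 0.43), and the second probe set, 94305_at, which read 516, 641, 1153 and 709 in control lung and 268 to 1292 in tumors, was not called either (log2 fold change -0.25, adjusted p = 0.59, 95% interval -0.99 to 0.48). Col1a2, the partner chain, gave opposite readings from its 2 probe sets. Probe set 101130_at read 541, 563, 826 and 712 in control lung, 279, 575 and 449 in small pools, 304, 333 and 307 in 3 middle-sized tumors and 457, 255 and 209 in large tumors and was called lower (log2 fold change -0.95, standard error 0.22, adjusted p = 0.0034). Probe set 161156_r_at read 547, 507, 475 and 1051 in control lung and 542 to 1106 in tumors and was not called (log2 fold change 0.35, adjusted p = 0.22). Without control lung 4, its highest control value, it was called higher (log2 fold change 0.62, adjusted p = 0.020), as it was with array weights (log2 fold change 0.47, adjusted p = 0.012).

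Col3a1, the chain of collagen III that accompanies collagen I in distensible tissue, read 286, 221, 660.0 and 477 in control lung and 118 to 562 in tumors (98331_at). Control lungs 3 and 4 were above the other control lungs, and neither tested probe set was called (log2 fold changes -0.46 and -0.47, adjusted p = 0.33 and 0.11). Probe set 161984_f_at was called lower without control lung 1 (adjusted p = 0.037) or 2 (0.037), and 98331_at without large tumor 1 (0.046). Col5a1, a chain of collagen V, which starts and limits collagen I fibrils, read 91, 82.3, 137 and 105 in control lung and 10.8 to 66.2 in tumors with probe set 101080_at. No tumor reached 70, a fall of at least 1.48-fold (log2 fold change -0.54, standard error 0.11, adjusted p = 0.001). Its probe set 93472_at was not called (log2 fold change -0.28, adjusted p = 0.16), nor was Col5a2, the neighbour of Col3a1 on chromosome 1 (log2 fold change -0.26, adjusted p = 0.6). Col2a1, Col11a1 and Col11a2, fibrillar chains of cartilage, were not tested, and of their probe sets that of Col2a1 alone reached 70, on 1 array.

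In the basement membrane and network collagens, 4 of 5 tested genes fell. Col4a1 and Col4a2 code for the chains of the common collagen IV molecule and share 1 stretch of DNA, their annotated starts lying 21 bases apart on opposite strands of chromosome 8. Col4a2 read 2267, 2694, 2154 and 2126 in control lung, 1399, 1606 and 1585 in small pools, 1523, 1460.5, 1323 and 1237 in middle-sized tumors and 1502, 1188 and 1340.0 in large ones, every tumor below every control lung (log2 fold change -0.70, standard error 0.10, adjusted p = 8.2e-05). Col4a1 read 1942, 2170.2, 1732 and 1520.1 in control lung, 1856, 1759.9 and 1688 in small pools, 1436, 1686, 1489 and 1297 in middle-sized tumors and 1621, 1228 and 1373 in large ones. Its small pools lay inside the control range, and it was not called (log2 fold change -0.25, standard error 0.11, adjusted p = 0.097). It was called lower without control lung 4 (log2 fold change -0.34, adjusted p = 0.035), after quantile normalization (-0.28, adjusted p = 0.045) and with array weights (-0.32, adjusted p = 0.0097). Whether the pair differed from each other was not tested.

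Col4a5, a chain of the collagen IV of specialised basement membranes, read 199, 196, 169 and 249 in control lung, 74.1, 70.7 and 66.3 in small pools, 94.5, 81.1, 62.7 and 42.8 in middle-sized tumors and 67.1, 22.2 and 67 in large ones (log2 fold change -1.46, standard error 0.12, adjusted p = 2.3e-07), at least 2.9-fold lower in large tumors. Col4a4, which assembles with it, read 105, 89.6, 81 and 89 in control lung and 6.63 to 26.8 in 8 tumors, but 71.5 and 91.6 in large tumors 2 and 3. It was called lower (log2 fold change -0.33, standard error 0.09, adjusted p = 0.009), in small and in middle-sized tumors but not in large ones (adjusted p = 0.023, 0.017 and 0.13). Col8a1, a short-chain collagen of vessel walls, read 129, 145, 130.0 and 152 in control lung, 51.1, 84.8 and 74.5 in small pools, 111, 75, 76.3 and 111 in middle-sized tumors and 118, 79.3 and 131 in large ones. Large tumor 3 alone reached the control range (log2 fold change -0.61, standard error 0.16, adjusted p = 0.0054). Col4a3 and Col10a1 stayed under 70 on every array.

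Collagens XV and XVIII, the multiplexins, join basement membranes to the matrix beneath, and their C-terminal fragments restin and endostatin are inhibitors of angiogenesis. The 2 members called higher over all tumors were theirs. Col15a1 read 72.6, 57, 124 and 113 in control lung, 183, 137 and 140.0 in small pools, 740.4, 258, 636 and 226 in middle-sized tumors and 502, 291 and 468 in large ones. Every tumor lay above every control lung, with the small pools closest to it (log2 fold change 1.68, standard error 0.31, adjusted p = 0.00048, from 91.5 ± 31.8 (SD, n = 4) to 358 ± 215 (SD, n = 10)). The rise was called in middle-sized and in large tumors (log2 fold change 2.15, adjusted p = 0.00045, and log2 fold change 2.16, adjusted p = 0.00068), and the small pools gave log2 fold change 0.73 (adjusted p = 0.17).

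Col18a1 had 4 tested probe sets, all with a fold change above 0, and 1 of them was called. Probe set 101882_s_at read 44.7, 63.5, 67.9 and 35.1 in control lung, 74.1, 141 and 119.5 in small pools, 58, 86.3, 62.8 and 213 in middle-sized tumors and 190.4, 209 and 240.0 in large ones. All 4 control lungs were under 70, so their group had no spread after the floor. The large tumors and middle tumor 4 were the highest, and middle tumors 1 and 3 were under 70. The probe set was called higher (log2 fold change 0.90, standard error 0.25, adjusted p = 0.0098), except by the methods' unpaired test after adjustment. The other 3 had log2 fold changes of 0.33 (99638_at, adjusted p = 0.084), 0.34 (162483_f_at, adjusted p = 0.09) and 0.61 (101881_g_at, adjusted p = 0.056). Against control lung, 101882_s_at and 101881_g_at were called higher in large tumors (log2 fold change 1.60, adjusted p = 0.0015, and log2 fold change 1.01, adjusted p = 0.021). These 3 lay near the threshold over all tumors and were called higher under several settings. All 3 were called with every array scaled to 1 median (adjusted p = 0.020 for 99638_at, 0.044 for 162483_f_at and 0.036 for 101881_g_at) and with array weights (0.0019, 0.037 and 0.0030). Probe sets 162483_f_at and 101881_g_at were also called without a floor, with a floor of 35 and after quantile normalization, 99638_at and 101881_g_at with a block for the replicate number, and 99638_at by the methods' unpaired test unadjusted. With 1 array left out, 99638_at was called without control lung 4 (adjusted p = 0.011), 162483_f_at without large tumor 1 (0.0092), and 101881_g_at without small pool 1 (0.042) or middle tumor 1 (0.040), 3 (0.025) or 4 (0.027).

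Col13a1, a transmembrane collagen of cell contacts, fell. Probe set 102261_f_at read 239, 357, 486 and 428 in control lung, 54.3, 84.8 and 43.6 in small pools, 52.8, 32.1, 73.7 and 47.7 in middle-sized tumors and 24.3, 24.9 and 18.5 in large ones (log2 fold change -2.34, standard error 0.16, adjusted p = 3.4e-08), at least 5.39-fold lower in large tumors. Probe set 102262_r_at read 150.3 to 308 in control lung and under 70 in every tumor, at least 3.19-fold lower (log2 fold change -1.63, adjusted p = 5.3e-07). Col17a1, the hemidesmosomal collagen of epithelial anchorage, was under 70 on every array.

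Collagen VI, whose 3 chains form beaded filaments around cells, was not called and differed widely between single tumors. Col6a1 probe set 95493_at read 1124, 1059, 1206 and 1419.9 in control lung, 1113, 1859.5 and 1587 in small pools, 2081, 1693, 2518 and 249 in middle-sized tumors and 817, 2227 and 321 in large ones. Middle tumor 4 and large tumor 3 were the lowest of the 10 tumors and below every control lung, while middle tumor 3 and large tumor 2 were the highest (log2 fold change -0.06, adjusted p = 0.94). The second Col6a1 probe set, 162459_f_at, gave 22.7 and 12.6 in the same low tumors and 141 to 382 in the others. Col6a2, the neighbour of Col6a1 on chromosome 10, read 415, 363, 386 and 709 in control lung, 279.8, 416 and 398 in small pools, 609, 321, 423 and 111 in middle-sized tumors and 264, 401 and 125 in large ones (log2 fold change -0.60, adjusted p = 0.23). Col6a3 read 445, 383, 782 and 932 in control lung, 913, 632 and 612 in small pools, 432, 465, 1343 and 265 in middle-sized tumors and 769, 413 and 222 in large ones (log2 fold change -0.16, adjusted p = 0.78). For all 4 probe sets of the 3 chains, middle tumor 4 and large tumor 3 were the lowest tumors. Both arrays also deviated together from their group means over the tested probe sets with a value on every array. Their correlation was 0.549, the highest between arrays of different groups. Whether the low values were particular to collagen VI was not tested. Col7a1, the anchoring fibril collagen of epithelia, was not called (log2 fold change 0.17, adjusted p = 0.42).

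Over all tumors none of the 5 tested fibril-associated collagens was called in limma, nor at an unadjusted p under 0.05 (1 was lower at that level in small tumors), at log2 fold changes from -0.49 to 0.03. Col9a1, Col9a2 and Col9a3 are the chains of collagen IX, known from cartilage. Col9a1 read 159, 163, 91.3 and 124 in control lung, 35.9, 36.6 and 79.8 in small pools, 48.6, 46.2, 167 and 88.2 in middle-sized tumors and 99.9, 245 and 61.1 in large ones (log2 fold change -0.49, adjusted p = 0.2). Large tumor 2 and middle tumor 3 read above every control lung and the others mostly below, and without large tumor 2 Col9a1 was called lower (log2 fold change -0.66, adjusted p = 0.034), as it was with array weights (adjusted p = 0.031). Col9a3 and Col14a1, which coats collagen I fibrils, had log2 fold changes of -0.39 (adjusted p = 0.25) and -0.30 (adjusted p = 0.13), and Col14a1 was called lower without middle tumor 1 (adjusted p = 0.012) or with array weights (0.047). Col12a1 and Col26a1 stayed near the limit of 70 (log2 fold changes 0.03 and -0.09). Col19a1 and Col22a1 did not reach 70.

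In all, 20 member probe sets were not tested, and 15 of these stayed under 70 on every array. The 11 genes with no tested probe set were Col2a1, Col4a3, Col10a1, Col11a1, Col11a2, Col17a1, Col19a1, Col22a1, Fbn2, Fmod and Tnc. Of the 12 genes with several tested probe sets, 7 differed between probe sets in call or direction (Col1a1, Col1a2, Col5a1, Col6a1, Col18a1, Eln and Mfap5), and for 5 they gave the same call and direction (Bgn, Col3a1, Col13a1, Fbln1 and Ogn).

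Inmt, the methyltransferase, fell in tumors of every size. It read 6198, 7271, 5165 and 7688 in control lung, 1153, 1349.6 and 969 in small pools, 1603, 769.6, 1471 and 354 in middle-sized tumors and 422, 239.9 and 119 in large ones. Every tumor lay below every control lung (log2 fold change -3.40, standard error 0.36, adjusted p = 3.7e-06), and the log2 fold change against control lung was -2.50 in small, -2.86 in middle-sized tumors and -4.83 in large ones.

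By size, the comparisons use the same 4 control lungs. In small tumors 20 of the 56 members were called lower (16.3% of all tested probe sets) and 0 higher (18.7% of all). At an unadjusted p under 0.05 in limma 0 members were higher in small tumors, and 3 were by the methods' unpaired test. In middle-sized tumors 21 were lower (16.2% of all) and 1 higher (14.6%), and in large tumors 20 were lower (17.8%) and 3 higher (19.2%). Lower in each of the 3 sizes were 17 member probe sets (12.8% of all tested probe sets), and lower in at least 1 size were 24 (21.1% of all). The median log2 fold change of the members was -0.37 in small, -0.42 in middle-sized and -0.45 in large tumors, where that of all probe sets was at most 0.07.

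The differences between sizes were tested in the same limma model, and no member was called, nor any other probe set (0.0% of 8127 in each of the 3 comparisons). At an unadjusted p under 0.05 there were 2 members between middle-sized and small tumors (6.19% of all), 8 between large and small (8.0% of all) and 5 between large and middle-sized (9.99% of all). The methods' unpaired test without adjustment gave 3, 4 and 3. Inmt had a log2 difference of -2.32 between large and small tumors (95% interval -3.38 to -1.26, adjusted p = 0.11), the lowest of all 8127 probe sets in that comparison, and it was called without middle tumor 4 (adjusted p = 0.024) and with array weights (0.012). Without middle tumor 4, Inmt (adjusted p = 0.031) and Col18a1 101882_s_at (adjusted p = 0.022) were also called between large and middle-sized tumors. Col15a1 had a log2 difference of 1.42 between middle-sized and small tumors (95% interval 0.58 to 2.26, adjusted p = 0.7) and of 1.43 between large and small ones (95% interval 0.53 to 2.33, adjusted p = 0.33). Mfap4 was -1.02 in large against small tumors (95% interval -1.56 to -0.48, adjusted p = 0.22) and Mfap5 99518_at -1.33 (95% interval -2.19 to -0.47, adjusted p = 0.36). Fbln2 and Col8a1 had the opposite sign there, at 0.72 (95% interval 0.20 to 1.23) and 0.49 (95% interval 0.03 to 0.95).

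**Figure D3:**
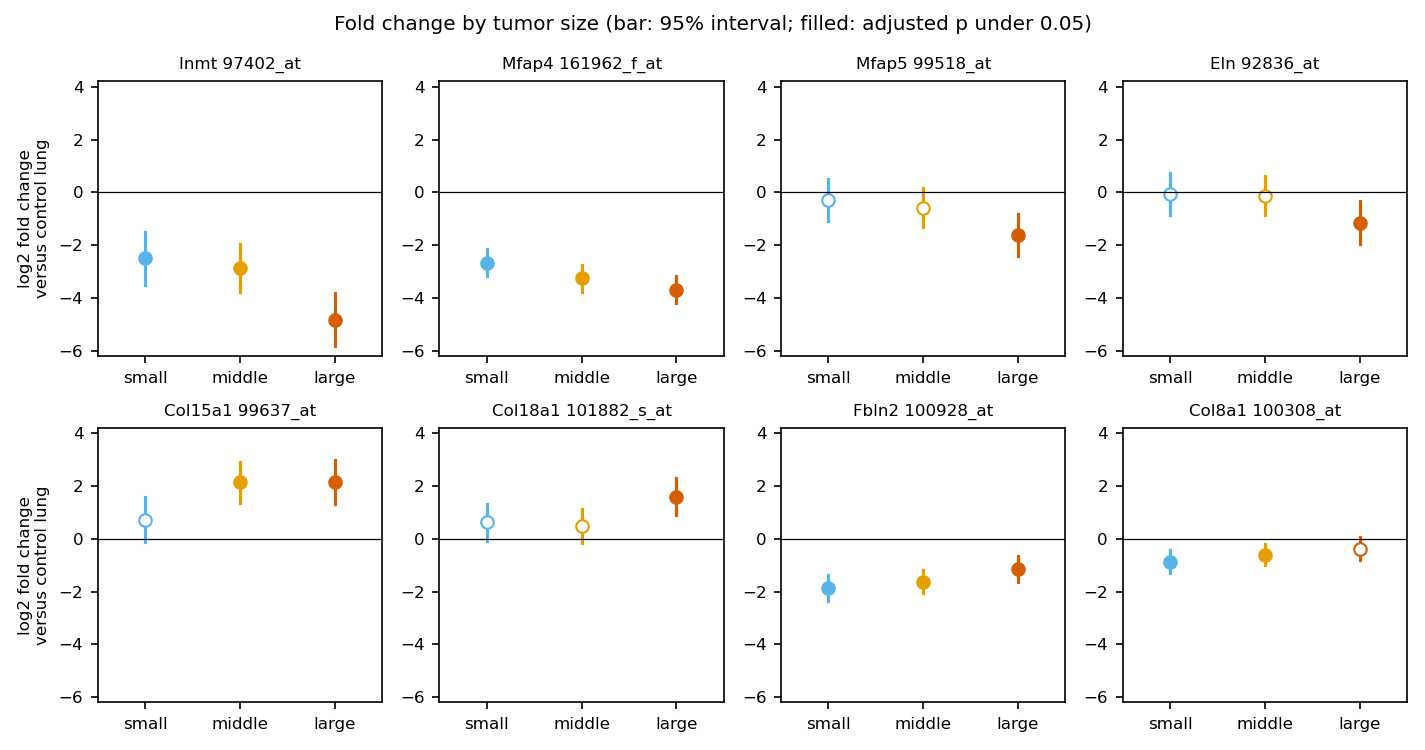
Log2 fold change against the 4 control lungs in small, middle-sized and large tumors for 8 member probe sets. Of each gene, the probe set with the lowest adjusted p in large tumors was drawn, so other probe sets of Eln, Mfap5 and Col18a1 are not shown. Bars are 95% intervals and filled points are called at an adjusted p under 0.05. Inmt goes from -2.50 to -4.83 and Col15a1 from 0.73 to 2.16 between small and large tumors, and no difference between sizes was called.

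Single tumors and pools also differed across the set. The small samples are pools of 3 to 4 tumors, so the counts below mix pooled values with those of single tumors. Over the 47 tested members with a value on every array, middle tumor 4 was the lowest of the 10 tumors for 15, large tumor 3 for 10 and large tumor 2 for 8. Middle tumor 1 was the highest for 15, middle tumor 3 for 8 and small pool 2 for 7. Over all probe sets, middle tumor 4 had the lowest median signal of all arrays (91.0) and middle tumor 3 the highest (118.6, missing values left out). The median was 107 for large tumor 3, 110 for large tumor 2, 106 for middle tumor 1 and 98.9 for small pool 2. Over the tested probe sets with a value on every array, middle tumor 4 and large tumor 3 deviated together from their group means (correlation 0.549). The same counts over all probe sets were not made, so differences of whole arrays cannot be told apart from those of the members. Among the 25 of these members that were not called, the median difference to the control mean was -0.52 (log2) in middle tumor 4, -0.41 in large tumor 3 and 0.14 in middle tumor 1. Among the 22 called members it lay between -1.40 and -0.81 in every tumor. Both sets were split by calls over these same arrays, so low medians among the called members follow largely from that split. With signals set to at least 70, which hides any spread below that limit, the widest log2 SD over tumors was that of Inmt (1.27), followed by Col6a1 (1.18 and 0.991) and Col15a1 (0.886).

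**Figure D4:**
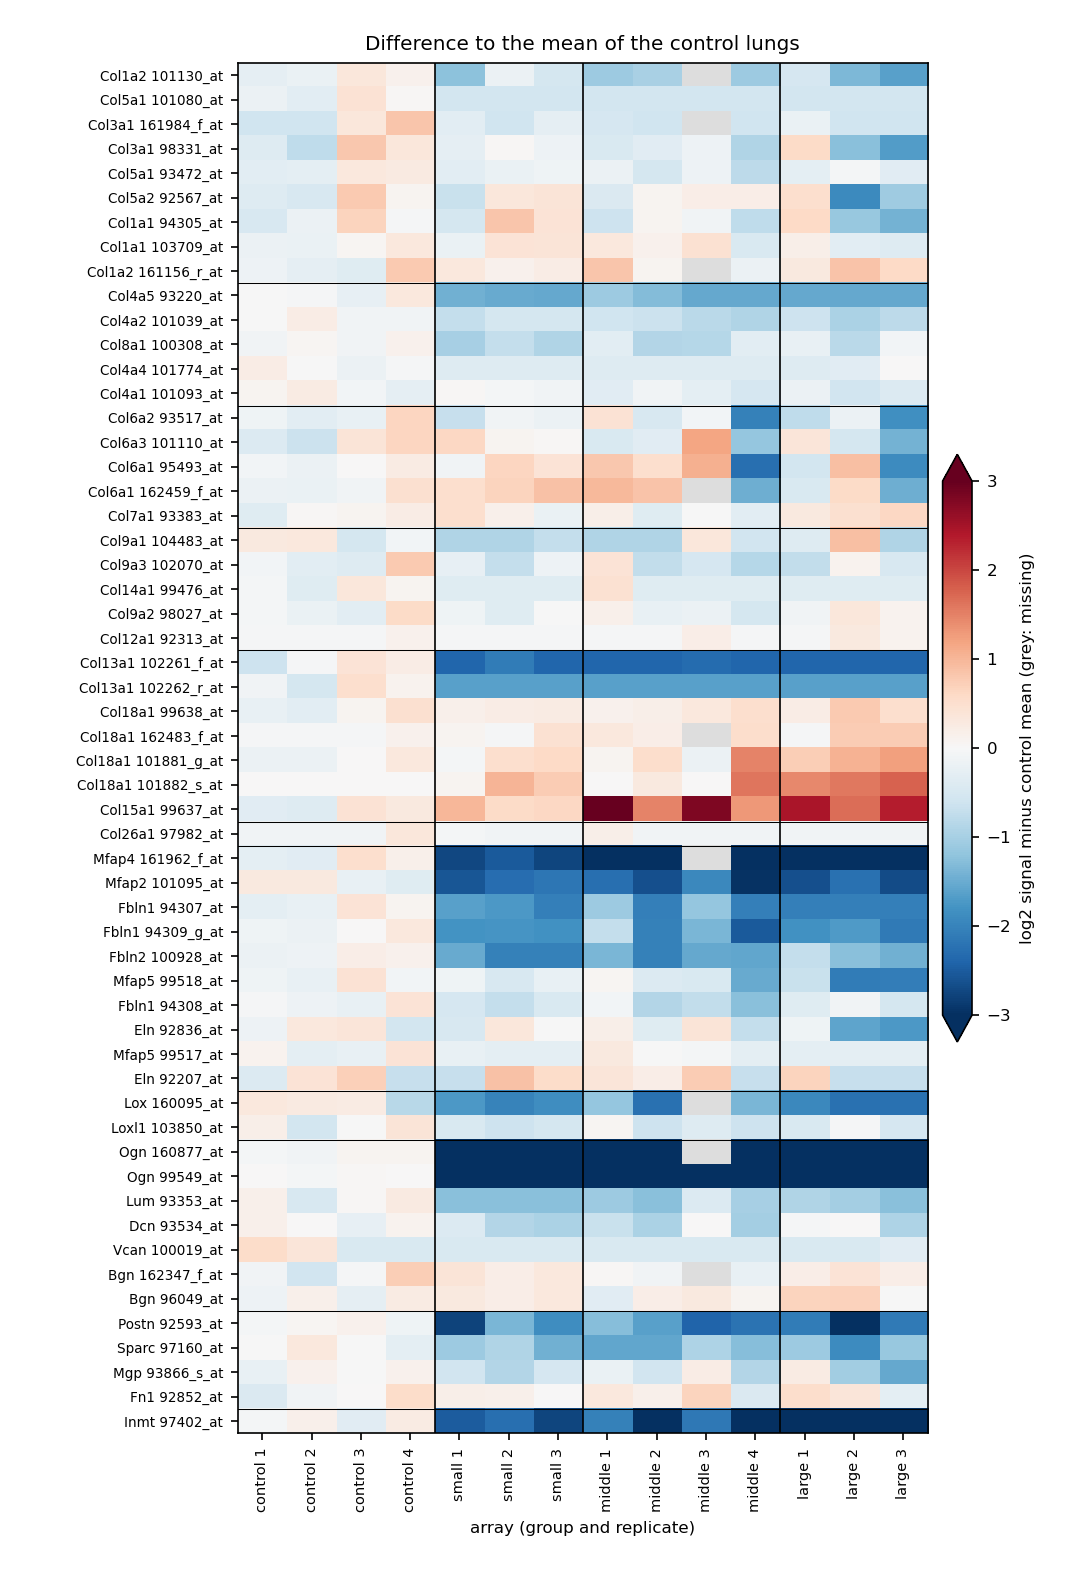
Difference of each array's log2 signal (set to at least 70) to the mean of the 4 control lungs for the 56 tested members, 1 row per probe set in the order of the roles and 1 column per array; blue is lower, red is higher, grey is missing, and colours end at differences of 3. Ogn, Mfap4, Mfap2 and Inmt are blue in all tumors, Col15a1 is red in all tumors, and the collagen VI rows turn blue in middle tumor 4 and large tumor 3.

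Other genes of the pathway came from lists of the machinery around these proteins. The counts of these lists and of the marker lists stand beside 20.8% lower and 22.7% higher over all 8127 tested probe sets. Of 14 tested genes that fold, modify, carry or cut procollagen, 2 were higher, 3 lower and 9 not called, the count lower being near the share over all probe sets. Fkbp7, a prolyl isomerase of the endoplasmic reticulum (log2 fold change -1.54, adjusted p = 2.9e-08), Pcolce, the enhancer of procollagen C-proteinase (log2 fold change -1.15, adjusted p = 0.0033), and P3h3, a prolyl 3-hydroxylase family member (log2 fold change -0.67, adjusted p = 2.1e-05), fell. Bmp1, the C-proteinase itself (log2 fold change 0.83, adjusted p = 0.00024), and Ppib, cyclophilin B (log2 fold change 0.60, adjusted p = 0.0031), rose. The collagen chaperone Serpinh1 (Hsp47) and the prolyl 4-hydroxylase subunits P4ha1, P4ha2 and P4hb were not called (log2 fold changes from -0.18 to 0.28). Of 4 tested partners of elastic fibres, Ltbp4, a TGF-beta binding protein needed for elastic fibre assembly, fell (log2 fold change -1.62, adjusted p = 4.3e-05), as did Ltbp1 (log2 fold change -0.34, adjusted p = 0.018), and 2 were not called. Ltbp1 was under 70 in every tumor (mean signal 89.9 in control lung and 16.9 in tumors), so its fold is a lower bound.

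Of 28 tested genes for other matrix glycoproteins and proteoglycans, 17 were lower, 1 was higher and 10 were not called, with a median log2 fold change of -0.76. The largest falls were in Spock2, testican 2, a heparan sulfate proteoglycan (log2 fold change -3.63, adjusted p = 5.6e-08), and Vwf, von Willebrand factor, which also stands among the endothelial markers (log2 fold change -3.37, adjusted p = 9.4e-09). Bcan, the proteoglycan brevican, was the one that rose (log2 fold change 1.22, adjusted p = 0.016). Of 15 tested genes of TGF-beta and PDGF signalling, which drive matrix genes in fibroblasts, 9 were lower and 6 were not called (median -0.76). They were led by Eng, endoglin, a TGF-beta co-receptor of endothelium (log2 fold change -2.82, adjusted p = 1.4e-09), and Pdgfra, the PDGF receptor of fibroblasts (log2 fold change -2.49, adjusted p = 7.8e-07), while the ligand genes Tgfb1 (log2 fold change -1.75, adjusted p = 9.1e-06) and Tgfb3 (log2 fold change -0.76, adjusted p = 0.042) also fell. None of 4 tested collagen receptors and uptake genes was called in limma, 1 at an unadjusted p under 0.05, the largest changes being those of Ddr2 (log2 fold change -0.65, adjusted p = 0.084) and Ctsk (log2 fold change 0.30, adjusted p = 0.3).

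Most tested markers of fibroblasts and smooth muscle were lower in the tumors, while most probe sets of the fibrillar collagens were not called. Over all 8127 tested probe sets, 20.8% were called lower and 4598 were not called. Of 17 tested fibroblast markers, 16 were lower and 1 was not called (median log2 fold change -1.66), and their summed signal, over the 14 with a value on every array, was 12756 to 14170 in control lung, 4050 to 4347 in small pools, 3278 to 5378 in middle-sized and 2159 to 3272 in large tumors. Clec3b, Fgfr4, Foxf1 and Meox2 were under 70 in every tumor, and no marker was listed at 0 in all tumors. Pdgfra and Pdgfrb stand in this list and in that of TGF-beta and PDGF genes, and Dpt and Npnt in this list and in that of other matrix genes. Of 9 tested smooth muscle markers, all 9 were lower, with sums of 4327 to 5849 in control lung and 753 to 1159 over the 10 tumors. Lower as well were 12 of 13 endothelial, 6 of 6 alveolar type I, 2 of 3 mesothelial and 9 of 9 cardiac muscle markers. Their median log2 fold changes were -3.19, -2.31, -1.45 and -2.85. Of 7 alveolar type II markers 2 were higher and 1 lower, and neither of 2 cartilage markers was called. Of 9 macrophage markers 2 were lower, near the 20.8% of all tested probe sets. The part of these cell types in the falls of the matrix genes was not tested.

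**Figure D5:**
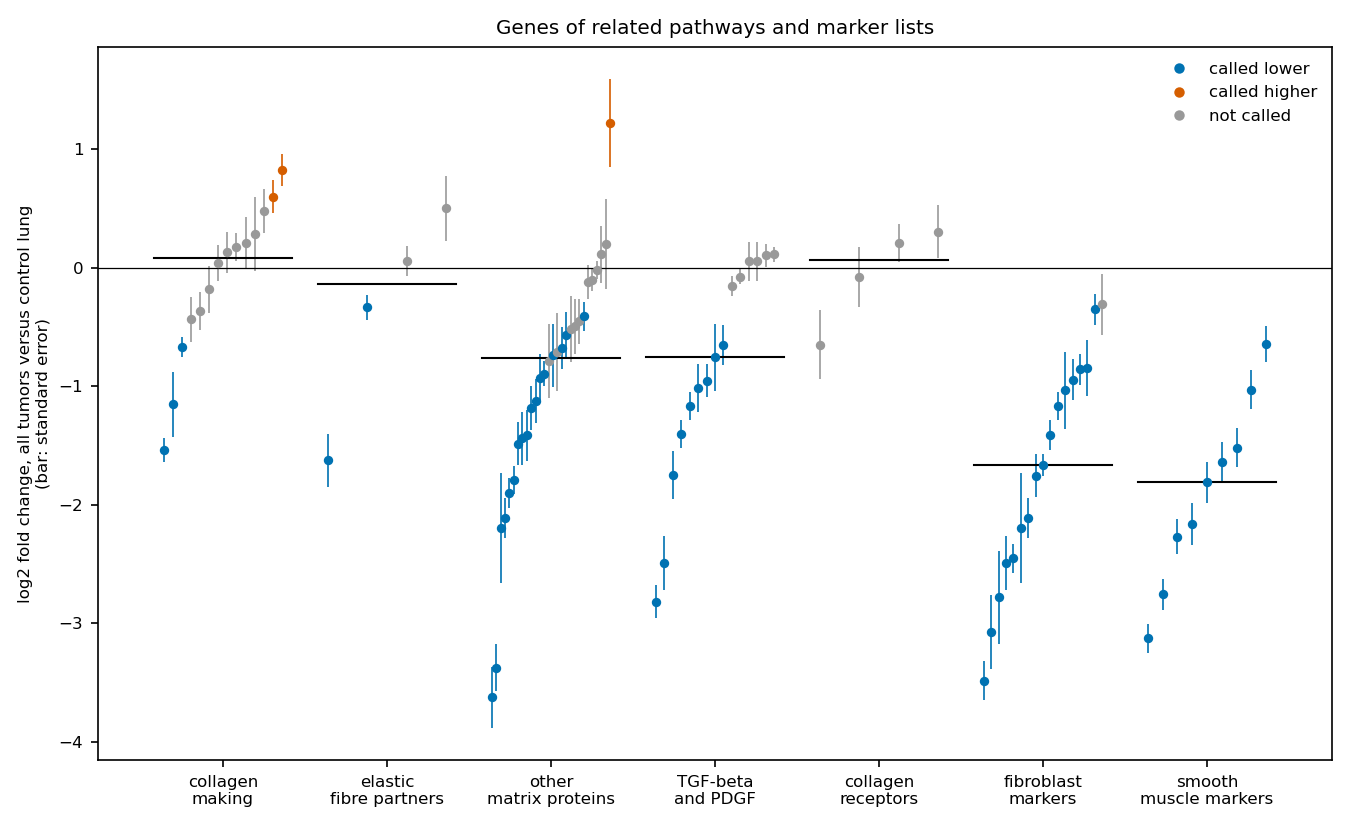
Log2 fold change of all tumors against control lung for the tested genes of 5 pathway lists and 2 marker lists; points are genes (1 probe set each) with standard error bars, blue for called lower, orange for called higher and grey for not called, and black lines are list medians. The medians of the fibroblast and smooth muscle markers are -1.66 and -1.81, those of collagen making and of collagen receptors 0.09 and 0.06.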

How the data were processed

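The deposited values are a linear intensity for each probe set, the MAS 5.0 signal, which the authors computed with the GCOS software and scaled to a target signal of 250 per array. Of 12488 probe sets, 66 array controls were left out. Names came from the platform annotation (10833 probe sets with 1 symbol, 396 with several, 1193 with none). Values at or below 1e-06, all on the array of middle tumor 3 (3125 values), were taken as missing. Signals were set to at least 70, put on the log2 scale and, where at least 3 arrays reached 70, fitted in limma 3.58.1 (R 4.3.3) with 4 group means, a trend in the spread and 7 contrasts. All tumors is the mean of the 3 sizes. Each probe set was kept apart, since members are probe sets. The means of groups in the text are over deposited signals, before the floor of 70. In simulated data of 8127 probe sets for all tumors against control lung, 81% of the 2-fold and 98% of the 4-fold changes put in were recovered. Recovery for probe sets near the limit of 70 was not tested separately, so these rates are not given for members with low signals.

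Members, lists and the comparisons were chosen with earlier results of these data known. Named are, per role, the 3 genes with the largest change, members called against their role, and genes whose probe sets differ, and the 2 largest changes of each pathway list; further members and list genes were named after their values were seen. The alternatives were other floors, filters, normalizations and spreads, 1 probe set per gene, array weights, a block for the replicate number, the unpaired test of the methods, missing values kept as deposited, only the groups compared, and leaving out each array. Detection and change calls were not used here. The number of arrays limits the precision.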

Additional observations from a re-analysis of the deposited data

Results flagged for a closer look

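Of 103 groups of 4 arrays looked at over the 56 tested members (control lung for each probe set and middle-sized tumors where all 4 had a value), 4 held a value far from the other 3 by Dixon's test at the 95% level, and chance marks about 1 group in 20. All 4 values are those of control lung 4. Col6a2 (93517_at) read 709 there against 363 to 415 in the other control lungs, and without control lung 4 its log2 fold change over all tumors was -0.38 (limma adjusted p = 0.50). Col1a2 (161156_r_at) read 1051 against 475 to 547, and it was called higher without that array (log2 fold change 0.62, limma adjusted p = 0.020). Lox (160095_at) read 186 against 391 to 411, and its fall was -2.14 on the log2 scale without that array (limma adjusted p = 5.9e-06). Col6a1 (162459_f_at) read 270.2 against 169 to 179 (log2 fold change 0.28 without it, limma adjusted p = 0.67). Control lung 4 also had the most probe sets at 70 or above of the 14 arrays (7575).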

How the results depend on the processing

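The count of called members stayed within 1.5 times its main value in each of the 27 alternatives for all tumors (26 called, 22 to 29 with 1 array left out, 19 to 36 in the others) and in each of the 28 for small (20, 18 to 23 and 15 to 29), middle-sized (22, 20 to 24 and 16 to 26) and large tumors (23, 21 to 30 and 17 to 30). Of the 26 called over all tumors, 21 kept their call in every alternative in which they were tested, and Dcn, Vcan, Mfap5 99518_at, Fbln1 94308_at and Col18a1 101882_s_at did not. No called member changed direction. The count called higher was less stable: 2 over all tumors, 1 with 1 probe set per gene or the methods' test adjusted, 4 without a floor, with a floor of 35, after quantile normalization or with the block, and 7 with array weights. Without control lung 4 it was 5 over all tumors, 1 in small, 2 in middle-sized and 6 in large tumors, and without large tumor 1 it was 5 in large tumors. With array weights it was 4 in small, 2 in middle-sized and 8 in large tumors. In small tumors (0) it was also 1 with a floor of 35 or without middle tumor 4 and 3 with only the groups compared or by the methods' test unadjusted, which gave 2 in middle-sized tumors. In large tumors (3) it was 6 with each array scaled to 1 median and 5 with a floor of 35 or after quantile normalization.

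Between sizes, the 0 calls became 3 (middle-sized against small), 4 (large against small) and 3 (large against middle-sized) by the methods' test unadjusted. For large against small tumors 1 member was called without a floor (Ogn 99549_at) and 1 with array weights (Inmt), and the counts with 1 array left out were 0 to 1, the 1 without middle tumor 4. For large against middle-sized tumors they were 0 to 2, the 2 without middle tumor 4, and for middle-sized against small tumors 0 throughout. The cause was not tested.

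Scaling each array to 1 median moved the median log2 fold change of all probe sets from 0.03 to 0.14, and the calls over all tumors from 1842 higher and 1687 lower to 2355 higher and 1384 lower (middle-sized tumors from 1188 and 1316 to 1915 and 1024), with 26 members called and 5 of them higher. Other counts over all probe sets that moved by over 1.5 times were those lower in small tumors with array weights (1323 to 1986) and those called in middle-sized tumors by the methods' test adjusted (1188 higher to 517, 1316 lower to 826). Between sizes they went from 0 and 0 to at most 17 higher and 32 lower with adjusted p-values (large against small, array weights) and to 363 higher and 420 lower by the methods' test unadjusted.

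The replicate numbers only name the samples. Samples with the same number in different groups did not deviate together (correlations -0.211 to 0.120 over 19 pairs, median -0.0386, against -0.373 to 0.549 over 54 pairs with different numbers). The highest, 0.549, was that of middle tumor 4 and large tumor 3. With the replicate number as a block, 27 members were called over all tumors, 18 in small, 22 in middle-sized and 25 in large tumors, and none between sizes in limma. The fit of only the groups compared has no separate form for all tumors, which use every group.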
